A study of Homo sapiens with 4 samples.

Results

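The enzymes described here carry pyruvate into mitochondria, turn it into acetyl-CoA, run the citric acid cycle, and link the cycle to glutamate, malate and cytosolic citrate. They are 35 genes, chosen by name from the 57014 named rows of a gene count table of 22Rv1 cells, a human prostate cancer line. Poly(A)-selected RNA was sequenced in 4 libraries, 2 per group. The CD276 knockout group (replicates 1 and 3) has sgCD276 in its library names, and the control group (replicates 1 and 3) has sgGFP in its library names and a wild-type genotype label. All cells grew in RPMI medium with fetal bovine serum. CD276 encodes B7-H3, an immune checkpoint molecule of the B7 family at the cell surface, and the comparison asks what differs in this line when it is knocked out. The labels do not say whether the knockout cells are a clone or a pool, and the replicates are called biological with no word on separate cultures. The p-values therefore rest on the spread between libraries, which may be technical.

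The pyruvate dehydrogenase complex oxidizes pyruvate to acetyl-CoA. It is switched off by pyruvate dehydrogenase kinases and on by its phosphatases. Citrate synthase joins acetyl-CoA to oxaloacetate, and the cycle then returns to oxaloacetate through isocitrate, 2-oxoglutarate, succinyl-CoA, succinate, fumarate and malate. Glutamine carbon enters as 2-oxoglutarate, through glutamate dehydrogenase or transaminases, and citrate that leaves mitochondria is split by ATP citrate lyase to feed lipid synthesis. Healthy prostate epithelium is known for secreting citrate instead of oxidizing it.

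The knockout libraries held 24437926 and 25802417 counts and the control libraries 23206271 and 20079050. Levels are given as normalized CPM, counts per 1000000 of the scaled library total. The targeted gene, CD276, was at 23.6 and 26.2 normalized CPM in the knockouts, against 47.4 and 54.4 in the controls, a log2 fold change of -1.03 ± 0.16 (SE; edgeR adjusted p = 0.00561, and 0.0812 without control replicate 3). Transcript therefore remained in both libraries labelled knockout, and counts per gene do not show an edit. Prostate markers summed to 3175 and 3937 normalized CPM in the knockouts and 3983 and 3902 in the controls. All 9 of them were detected in every library. Immune markers summed to at most 0.516 and endothelial markers to at most 0.0773 in any library, with CD3E, PECAM1 and CDH5 at 0 in all 4. The 4 fibroblast markers summed to 33.7 and 45.6 in the knockouts and 59.7 and 53.9 in the controls, with COL1A1 at 18.9 and 29.1 in the knockouts and 50 and 46.2 in the controls. LUM went the other way, at 13.9 and 13.8 in the knockouts and 8.82 and 6.61 in the controls, COL1A2 was at most 2.16 and DCN under 0.5 in every library. Basal markers summed to at most 0.232. Mitochondrially encoded genes took 1.46% and 1.78% of knockout counts, against 5.84% and 6.15% of control counts. MALAT1, an abundant nuclear RNA, was at 394 and 570 normalized CPM in the knockouts and 2653 and 2257 in the controls. The part of these library-wide differences in the results below was not tested, and in bulk RNA a change in the share of some cells cannot be told apart from a change in RNA per cell.

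More of these enzymes rose than fell in the CD276 knockouts. Of the 35, all of which passed the filter on low counts, 13 rose (37.1%), 1 fell (2.86%) and 21 were not called by edgeR's quasi-likelihood test at a Benjamini-Hochberg adjusted p under 0.05 over 18043 genes. Among all genes tested 9.87% rose, 12.9% fell and 22.8% changed in either direction. Among nuclear protein-coding genes with a mean level at least that of the lowest of the 35, 26.8% changed, 14.5% rose and 12.3% fell. Among all nuclear protein-coding genes tested 23.4% changed, 12.2% rose and 11.2% fell. The share of these enzymes that rose was above these backgrounds and the share that fell below them. The median log2 fold change of knockout over control was 0.27 for the 35 and -0.0045 for all genes, and 26 of the 35 values were positive, against 49.7% of all genes. Both knockouts lay above both controls for 24 of the 35 (31.8% of all genes), and below both for 7 (34.1% of all genes). At an unadjusted p under 0.05 15 were higher and 4 lower, where 17.9% of all genes were higher and 20.9% lower. DESeq2 called 14 of the 35 as higher and 2 as lower, and 10.4% and 11.9% of all genes in the same directions. At an edgeR adjusted p under 0.01, a threshold chosen after seeing the data, 5 of the 35 were higher and 0 lower, where 2.00% of all genes were higher and 3.74% lower. The enzymes that rose were SUCLG2, IDH3A, PDK1, ACO1, DLD, IDH1, DLAT, DLST, ME2, ACLY, MPC2, MDH2 and GOT2, and the enzyme that fell was IDH3G.

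The number of calls depended on which libraries were fitted. The 2 knockouts were less alike (correlation of log2 CPM 0.9795) than the 2 controls (0.9904). A chi-square comparing the counts of a group's 2 libraries over genes was 49.2 per degree of freedom for the knockouts. It was 6.22 for the controls. A fit without 1 control takes its spread from the 2 knockouts alone, and a fit without 1 knockout from the 2 controls alone. Genes tested numbered 18931 without control replicate 1 and 19045 without control replicate 3. They numbered 19076 without knockout replicate 1 and 19051 without knockout replicate 3, against 18043 with all libraries. The counts of all genes called below are to be read against these totals. The median log2 fold change of the 35 was 0.256 without control replicate 1 and 0.248 without control replicate 3. It was 0.352 without knockout replicate 1 and 0.328 without knockout replicate 3. Without control replicate 1 a single call among the 35 remained, SUCLG2, and without control replicate 3 there were 2, SUCLG2 and IDH3A. All genes called dropped in the same way, to 312 and 599 of 4111. Without knockout replicate 1 the calls numbered 23 and without knockout replicate 3 they numbered 24, and all 14 were among them in each case. All genes called rose in number as well, to 8713 and 9198.

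**Figure D1:**
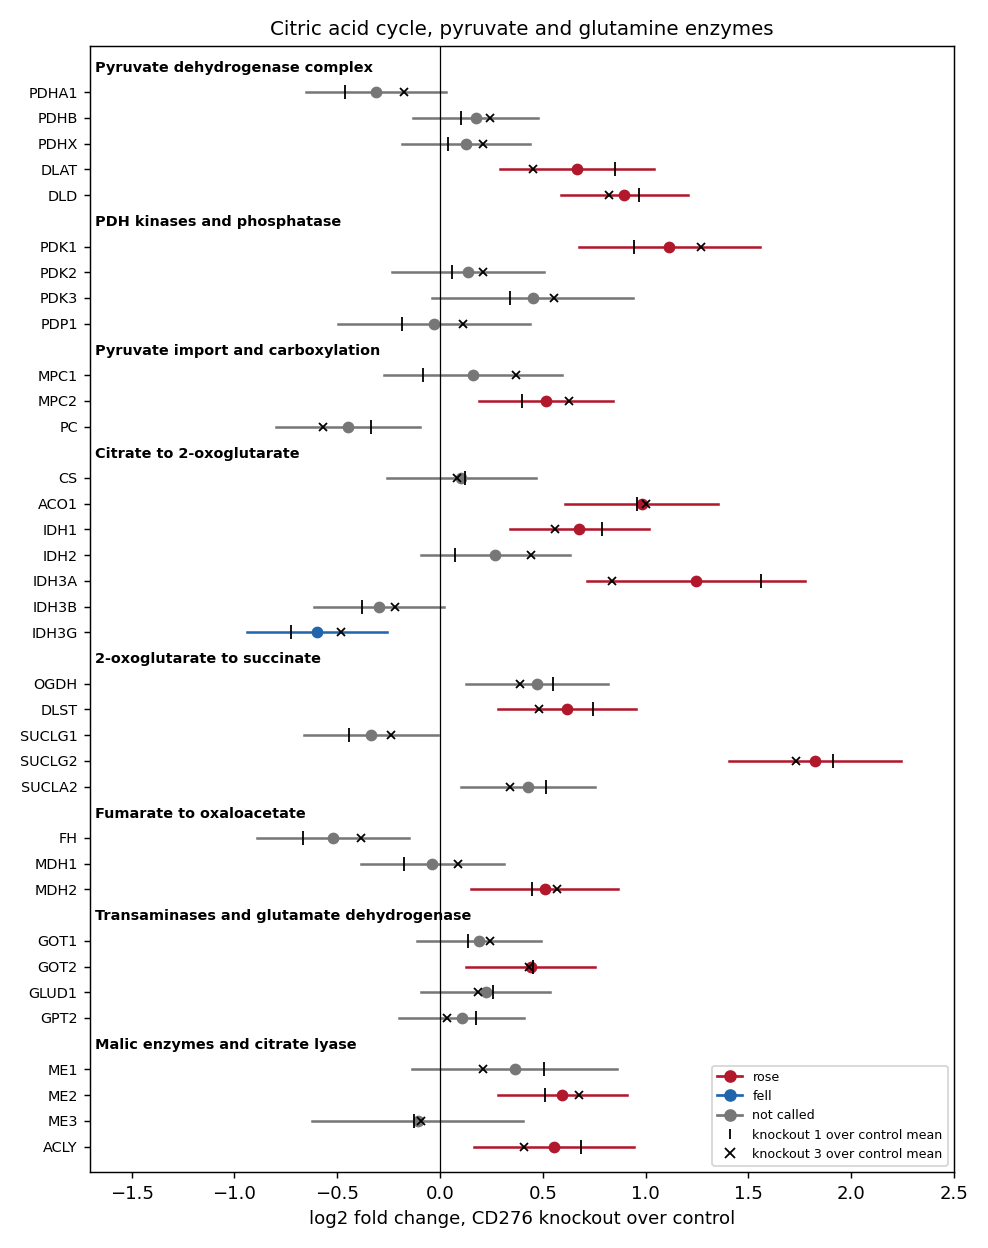
Log2 fold change of CD276 knockout over control for each of the 35 enzymes, grouped by role, with its 95% interval from the edgeR fit (bars) and each knockout library over the mean of the 2 controls (black marks). Red points rose, the blue point fell and grey points were not called; SUCLG2 lies farthest to the right at 1.82 and IDH3G farthest to the left at -0.60.

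Pyruvate enters mitochondria through a carrier of MPC1 and MPC2. MPC2 was at 166 and 195 normalized CPM in the knockouts, against 128 and 125 in the controls, and rose (log2 fold change 0.52 ± 0.14, SE, edgeR adjusted p = 0.0340). Both knockouts were above both controls. MPC2 (chromosome 1, 167916729 to 167937040, minus strand, GRCh38) shares 22.5% of its exonic bases with DCAF6 on the opposite strand, which had 1740 and 1610 counts in the knockouts and 1020 and 897 in the controls. The strand setting of the counting is unknown here, and the part of DCAF6 in the MPC2 counts was not tested. MPC1, its partner subunit, was at 21.1 and 28.9 in the knockouts and 21.8 and 22.9 in the controls, groups that overlap, with a 95% interval of -0.27 to 0.60 for the log2 fold change. PC, pyruvate carboxylase, which makes oxaloacetate from pyruvate, was at 37.4 and 31.8 in the knockouts and 48.6 and 45.7 in the controls. The groups did not overlap, but PC missed the threshold (-0.45 ± 0.15, edgeR adjusted p = 0.0649).

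Within the pyruvate dehydrogenase complex, the acetyltransferase and the lipoamide dehydrogenase rose while no call was made for the decarboxylase subunits. DLD, the dihydrolipoamide dehydrogenase that this complex shares with the 2-oxoglutarate dehydrogenase complex, was at 159 and 144 normalized CPM in the knockouts, against 79.9 and 82.8 in the controls. It rose 1.86-fold (log2 0.90 ± 0.14, edgeR adjusted p = 0.00555), and its 2 groups lay far apart relative to the spread within each. DLD lies on chromosome 7 (107890970 to 107931730, plus strand). DLAT, the acetyltransferase that carries the lipoyl arms (chromosome 11, 112024814 to 112064390, plus strand), was at 150 and 114 in the knockouts and 79.5 and 86.6 in the controls, and rose 1.59-fold (0.67 ± 0.165, edgeR adjusted p = 0.0234). Knockout replicate 1 was the higher of the 2 for both genes. PDHA1 and PDHB encode the decarboxylase subunits that bind thiamine pyrophosphate, and PDHX the protein that anchors DLD to the complex. None of the 3 was called. PDHA1 was at 131 and 160 in the knockouts and 184 and 177 in the controls, with a log2 interval of -0.65 to 0.03. PDHB was at 112 and 123 in the knockouts and 103 and 105 in the controls (interval -0.13 to 0.48), and PDHX at 64.0 and 71.9 in the knockouts and 61.4 and 63.3 in the controls (-0.19 to 0.44). PDHA1 shares 21.3% of its exonic bases with MAP3K15 on the opposite strand, which had at most 11 counts in any library.

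Of the regulators of the complex, the kinase PDK1 rose. Pyruvate dehydrogenase kinases phosphorylate and inactivate PDHA1, and PDK1 is a textbook target of hypoxia-inducible factor. PDK1 (chromosome 2, 172555373 to 172608669, plus strand) was at 17.5 and 21.8 normalized CPM in the knockouts, against 8.91 and 9.24 in the controls, a 2.17-fold rise (log2 1.11 ± 0.19, edgeR adjusted p = 0.00765). Both knockouts were above both controls. PDK2 was at 28.7 and 31.9 in the knockouts and 25.5 and 29.7 in the controls, and the groups overlap. PDK3 was at 8.57 and 9.935 in the knockouts and 7.12 and 6.40 in the controls (log2 interval -0.04 to 0.94), and PDP1, a phosphatase that reactivates the complex, at 10.5 and 12.95 in the knockouts and 10.9 and 13.0 in the controls (-0.49 to 0.44). PDK2 shares 38.6% of its exonic bases with SAMD14 on the opposite strand, at 323 and 390 counts in the knockouts and 261 and 255 in the controls.

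The steps from acetyl-CoA to 2-oxoglutarate held the members with opposite calls. CS, citrate synthase, was at 653.5 and 636 normalized CPM in the knockouts and 594 and 605 in the controls, and its log2 fold change of 0.10 had an interval of -0.26 to 0.47. ACO1, the cytosolic aconitase that doubles as an iron-responsive RNA-binding protein, was at 26.3 and 27.1 in the knockouts, against 13.1 and 14.0 in the controls. It rose 1.97-fold (0.98 ± 0.16, edgeR adjusted p = 0.00692), with both knockouts above both controls. ACO1 lies on chromosome 9 (32384603 to 32454769, plus strand) and shares no annotated exon. IDH1, the cytosolic and peroxisomal NADP-dependent isocitrate dehydrogenase (chromosome 2, 208236227 to 208266074, minus strand), was at 219.6 and 188 in the knockouts and 119.7 and 135 in the controls, and rose 1.60-fold (0.68 ± 0.15, edgeR adjusted p = 0.0159). IDH2, its mitochondrial counterpart, was not called, at 73.1 and 94.4 in the knockouts and 66.7 and 72.2 in the controls (interval -0.09 to 0.63).

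The 3 subunits of the NAD-dependent isocitrate dehydrogenase, a mitochondrial enzyme that catalyses a rate-limiting step of the cycle, had changes of opposite sign. IDH3A, the catalytic subunit, was at 68.4 and 41.3 normalized CPM in the knockouts, against 22.3 and 24.0 in the controls, and rose 2.37-fold (log2 1.24 ± 0.23, edgeR adjusted p = 0.00958). Both knockouts were above both controls, with knockout replicate 1 well above knockout replicate 3. IDH3G, a regulatory subunit, was at 87.4 and 103.5 in the knockouts, against 153 and 136 in the controls, and fell (-0.60 ± 0.15, edgeR adjusted p = 0.0238). Both knockouts lay below both controls. With offsets for GC content and exon length the fall of IDH3G missed the threshold (-0.36, edgeR adjusted p = 0.0652), while IDH3A kept its call (1.12, edgeR adjusted p = 0.00668). IDH3B, the remaining subunit, was not called, at 157 and 176 in the knockouts and 207 and 202 in the controls (interval -0.61 to 0.02). IDH3A (chromosome 15, 78131498 to 78171949, plus strand) shares 38.2% of its exonic bases with ACSBG1 on the opposite strand, which had only 12 and 5 counts in the knockouts and 16 and 8 in the controls. IDH3G (chromosome X, 153785766 to 153794523, minus strand) shares 10.2% with SSR4 on the opposite strand, at 5138 and 6720 counts in the knockouts and 8620 and 6337 in the controls, and the part of SSR4 in its counts was not tested. The windows from 250 bases before to 50 after the annotated start are shown for the pair of subunits with opposite calls (RefSeq, GRCh38.p14). That of IDH3A is chr15:78149112-78149411, plus strand, and that of IDH3G chrX:153794326-153794625, minus strand. Capitals mark matches on either strand to the letters ACGTG or CCGGAAG, which are taken up with the other promoters below.
IDH3A: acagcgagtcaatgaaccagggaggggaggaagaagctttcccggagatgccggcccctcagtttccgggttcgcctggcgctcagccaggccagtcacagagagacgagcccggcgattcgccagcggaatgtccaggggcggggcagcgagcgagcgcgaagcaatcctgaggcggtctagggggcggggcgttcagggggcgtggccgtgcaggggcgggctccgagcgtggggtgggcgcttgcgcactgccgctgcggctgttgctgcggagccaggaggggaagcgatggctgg
IDH3G: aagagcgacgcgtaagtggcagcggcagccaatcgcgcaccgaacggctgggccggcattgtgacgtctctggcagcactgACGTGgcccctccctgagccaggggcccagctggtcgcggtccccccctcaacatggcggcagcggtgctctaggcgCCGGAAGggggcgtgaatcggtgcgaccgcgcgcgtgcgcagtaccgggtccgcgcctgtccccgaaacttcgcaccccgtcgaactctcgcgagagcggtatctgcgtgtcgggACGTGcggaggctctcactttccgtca

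From 2-oxoglutarate to succinate, DLST and SUCLG2 rose. OGDH and DLST form, with DLD, the 2-oxoglutarate dehydrogenase complex. DLST, the succinyltransferase that carries its lipoyl arms (chromosome 14, 74881891 to 74903745, plus strand), was at 137 and 114 normalized CPM in the knockouts, against 78.4 and 85.4 in the controls, and rose 1.53-fold (log2 0.62 ± 0.15, edgeR adjusted p = 0.0210). OGDH, the decarboxylase, was at 267.5 and 239 in the knockouts and 168 and 197 in the controls, groups that did not overlap, and narrowly missed the threshold (0.47 ± 0.15, edgeR adjusted p = 0.0545). It passed in 5 of 7 alternative analyses that kept all libraries.

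Succinyl-CoA ligase turns succinyl-CoA into succinate while making GTP or ATP, depending on which beta subunit joins the shared alpha subunit SUCLG1. SUCLG2, the GTP-forming beta subunit, had the largest fold change of the 35. It was at 64.1 and 56.55 normalized CPM in the knockouts, against 14.6 and 19.5 in the controls, and rose 3.54-fold (log2 1.82 ± 0.18, edgeR adjusted p = 0.00231). Ranked by p, it stood 42nd of the 18043 genes tested. It was also the member of the 35 whose call held without any single library, with a log2 fold change of 1.63 to 2.05. SUCLG2 (chromosome 3, 67360460 to 67654614, minus strand) shares no annotated exon with another gene, and the processed copy SUCLG2P2 had at most 4 counts in any library. SUCLA2, the ATP-forming beta subunit, was at 57.2 and 50.8 in the knockouts and 40.3 and 40.0 in the controls, and was not called (0.43 ± 0.14, edgeR adjusted p = 0.0608). SUCLG1 was at 123 and 142 in the knockouts and 175 and 160.3 in the controls, and was not called either (-0.34 ± 0.14, edgeR adjusted p = 0.118), although it passed as lower with the GC and length offsets (-0.42, edgeR adjusted p = 0.0485). Scaled per kilobase of annotated exon, SUCLG2 stood at 19.5 and SUCLA2 at 6.05 normalized CPM in the knockouts, against 5.52 and 4.49 in the controls. The union of annotated exons is 3090 bases for SUCLG2 and 8928 for SUCLA2. In the controls SUCLG2 was above SUCLA2 on this scale but below it in normalized CPM, so their order depends on the exon lengths taken. The start windows of the 2 beta subunits are given because their genes changed by different amounts. That of SUCLG2 is chr3:67654563-67654862 and that of SUCLA2 chr13:48001224-48001523, both on the minus strand, and neither holds a match to the 3 motifs searched.
SUCLG2: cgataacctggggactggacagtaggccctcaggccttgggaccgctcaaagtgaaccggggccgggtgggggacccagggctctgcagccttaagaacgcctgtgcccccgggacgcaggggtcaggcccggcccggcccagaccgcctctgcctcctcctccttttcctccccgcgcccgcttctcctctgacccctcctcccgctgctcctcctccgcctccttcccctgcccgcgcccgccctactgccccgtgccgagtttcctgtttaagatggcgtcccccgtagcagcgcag
SUCLA2: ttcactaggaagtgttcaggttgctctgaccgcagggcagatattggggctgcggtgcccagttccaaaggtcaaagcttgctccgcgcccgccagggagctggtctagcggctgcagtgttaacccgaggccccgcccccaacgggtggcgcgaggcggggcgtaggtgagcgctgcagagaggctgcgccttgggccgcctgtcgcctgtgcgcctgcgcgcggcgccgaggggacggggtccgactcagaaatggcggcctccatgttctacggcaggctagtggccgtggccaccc

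Of the enzymes from fumarate to oxaloacetate, MDH2 rose and FH was lower without passing the test. MDH2, the mitochondrial malate dehydrogenase (chromosome 7, 76048051 to 76067508, plus strand), was at 576 and 627 normalized CPM in the knockouts, against 428 and 417 in the controls, and rose 1.42-fold (log2 0.51 ± 0.16, edgeR adjusted p = 0.0482). FH, fumarate hydratase, was at 266 and 323 in the knockouts and 436 and 409 in the controls. Its knockouts were below both controls, and its log2 fold change was -0.52 ± 0.16. By p it ranked 4112 of the genes tested, directly after the 4111 that were called. MDH1, the cytosolic malate dehydrogenase, was at 173 and 208 in the knockouts and 206 and 185 in the controls, overlapping groups with a log2 interval of -0.38 to 0.31.

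Among the enzymes that move amino groups and connect the cycle to glutamate, GOT2 rose. The aspartate transaminases GOT1, in the cytosol, and GOT2, in mitochondria, belong with the malate dehydrogenases to the shuttle that carries reducing equivalents into mitochondria. GOT2 (chromosome 16, 58707131 to 58734357, minus strand) was at 233 and 229.6 normalized CPM in the knockouts, against 163 and 178 in the controls, and rose 1.36-fold (log2 0.44 ± 0.14, edgeR adjusted p = 0.0497). GOT1 was at 123 and 132 in the knockouts and 110.3 and 113 in the controls (interval -0.11 to 0.49). GLUD1, glutamate dehydrogenase, was at 242.5 and 230 in the knockouts and 207.5 and 198 in the controls (-0.09 to 0.53), and GPT2, the mitochondrial alanine transaminase, at 98.7 and 89.7 in the knockouts and 86.2 and 88.85 in the controls (-0.20 to 0.41). GLUD1 has close copies whose reads the counting could split, with GLUD2 at 49 and 21 counts in the knockouts and 8 and 14 in the controls and GLUD1P3 at 65 and 50 in the knockouts and 51 and 62 in the controls.

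The enzymes that take carbon out of the cycle included 2 that rose. ME2, the mitochondrial NAD-dependent malic enzyme that makes pyruvate from malate (chromosome 18, 50878734 to 50954257, plus strand), was at 111 and 124.5 normalized CPM in the knockouts, against 75.1 and 80.9 in the controls, and rose 1.51-fold (log2 0.59 ± 0.14, edgeR adjusted p = 0.0188). ACLY, ATP citrate lyase (chromosome 17, 41866908 to 41930542, minus strand), was at 492 and 405 in the knockouts, against 281 and 330 in the controls, and rose 1.47-fold (0.55 ± 0.17, edgeR adjusted p = 0.0486). Its controls differed more from each other than those of ME2. The cytosolic malic enzyme ME1 was at 11.6 and 9.47 in the knockouts and 9.05 and 7.33 in the controls (interval -0.14 to 0.86), and the mitochondrial NADP-dependent ME3 at 5.71 and 5.84 in the knockouts and 6.31 and 6.14 in the controls (-0.62 to 0.40). MDH2, GOT2 and ACLY sat near the threshold and lost their calls when nuclear protein-coding genes alone were fitted (edgeR adjusted p = 0.0522, 0.0629 and 0.0624 in that order), and ACLY also did with the GC and length offsets (edgeR adjusted p = 0.0521).

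**Figure D2:**
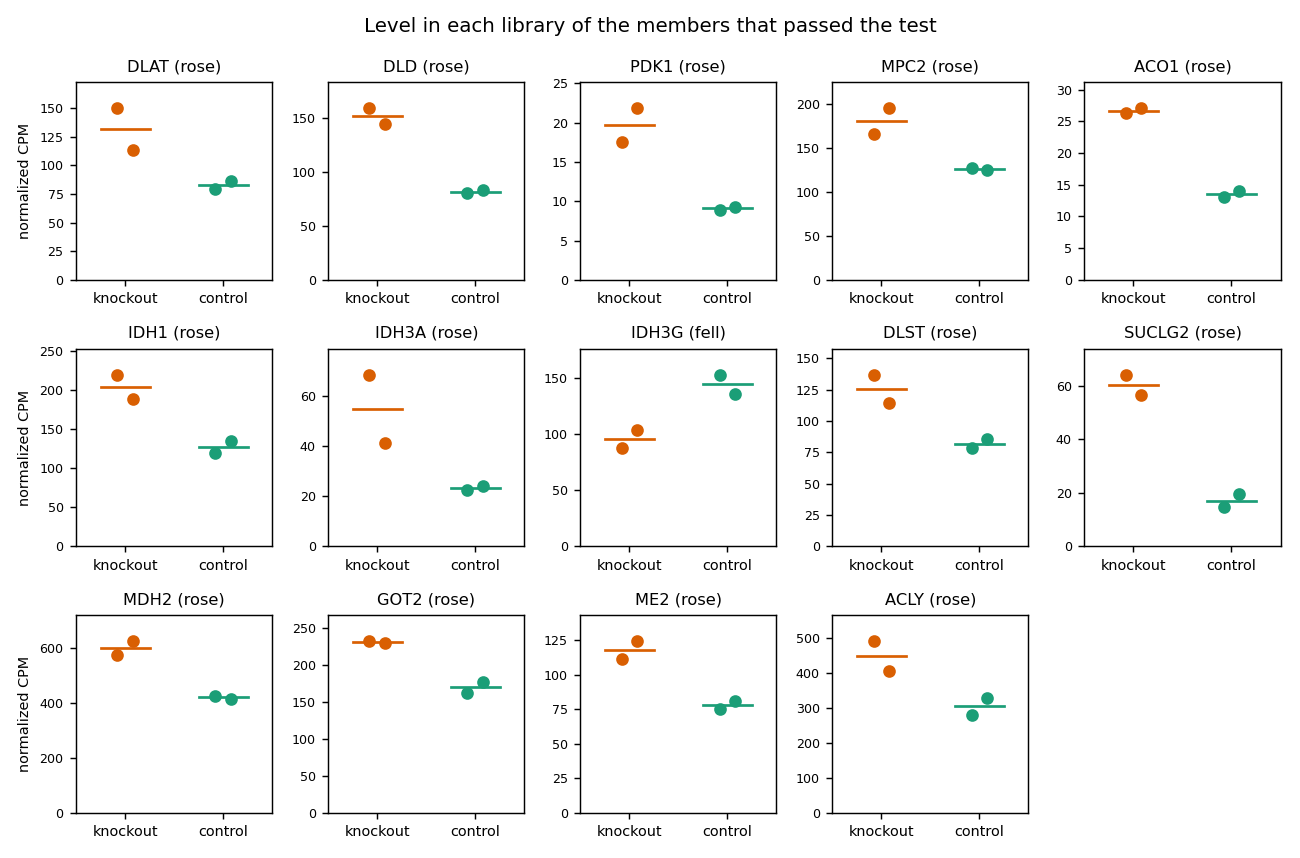
Normalized CPM in each library (points) and group mean (lines) for the 14 enzymes that passed the test, each panel with its own axis starting at 0, CD276 knockout left of control. The groups do not overlap in any panel. The gap between the knockout libraries is wider than that between the controls in every panel except those of ACO1, IDH3G and GOT2.

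Measured per length, the most abundant of these transcripts were not those that changed most. Per kilobase of annotated exon, FH stood at 138 normalized CPM in the knockouts and 197 in the controls, and MDH2 at 165 in the knockouts and 116 in the controls. CS followed at 101 in the knockouts and 93.7 in the controls, ACLY at 86.0 in the knockouts and 58.6 in the controls, and IDH3B at 64.9 in the knockouts and 79.7 in the controls. FH was thus the highest of the 35 in the controls and MDH2 in the knockouts. PDK1 was the lowest in both groups, at 1.32 in the knockouts and 0.610 in the controls. IDH3A stood at 8.03 in the knockouts and 3.39 in the controls, below IDH3B and below IDH3G, which was at 35.1 in the knockouts and 53.2 in the controls. Exon length was the union of all annotated exons, 14883 bases for PDK1 and 16243 for ME2, and levels of genes with long rarely used exons come out too low on this scale. All 35 together took 0.556% and 0.521% of knockout counts and 0.425% and 0.431% of control counts.

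**Figure D3:**
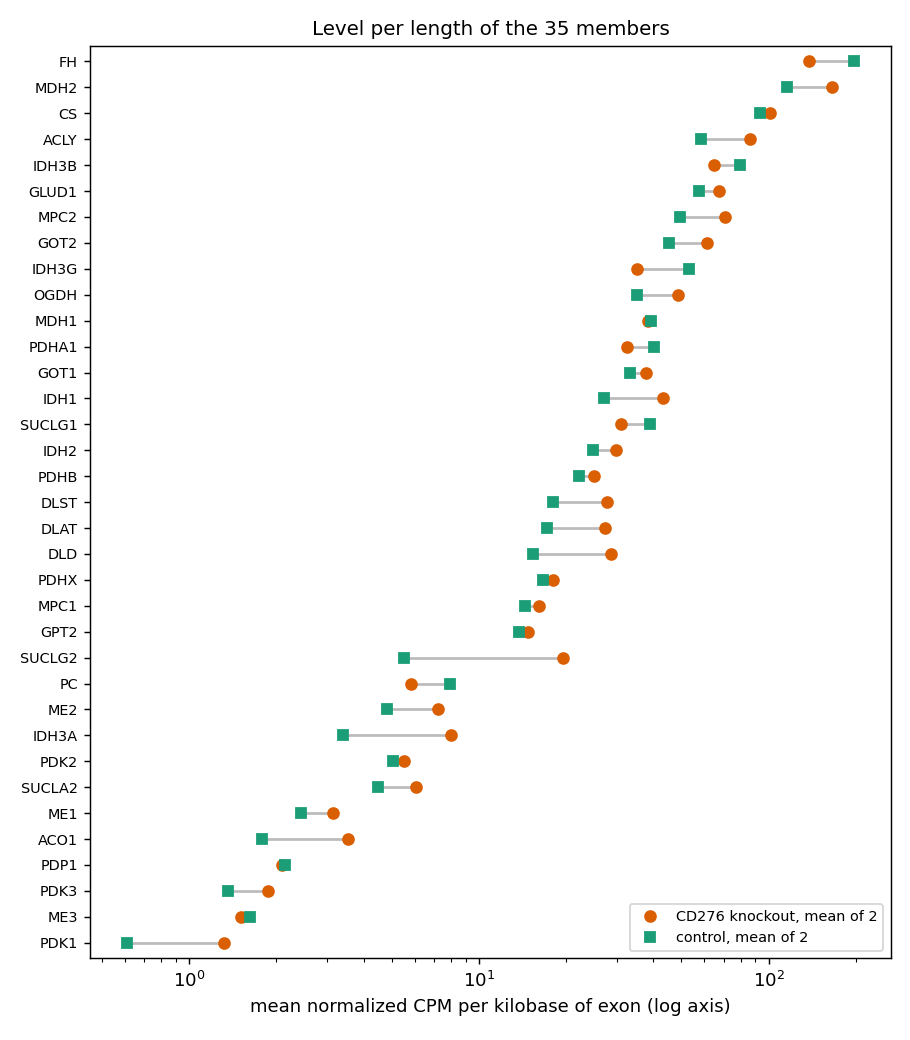
Mean normalized CPM per kilobase of annotated exon (log axis) of the 35 enzymes in CD276 knockout (circles) and control (squares) libraries, ordered by level. FH, MDH2 and CS are at the top and PDK1 at the bottom, and SUCLG2 and IDH3A have the longest joining lines in the lower part of the range.

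Ratios of 2 genes' raw counts within a library do not depend on how libraries are scaled. They are not corrected for gene length, so their shift between groups can be read but not their size. With 2 libraries per group an exact two-sided permutation test cannot go below p = 0.33, so the ratios are a description. The ratio of SUCLG2 to SUCLA2 was 1.12 and 1.11 in the knockouts and 0.363 and 0.488 in the controls, a 2.65-fold shift, and that of SUCLG2 to SUCLG1 was 0.521 and 0.399 in the knockouts and 0.0836 and 0.122 in the controls, a 4.52-fold shift. The ratio of the kinase PDK1 to the phosphatase PDP1 was 1.66 and 1.69 in the knockouts and 0.816 and 0.710 in the controls, and that of PDK1 to PDK2 was 0.609 and 0.685 in the knockouts and 0.349 and 0.311 in the controls. For the isozyme pairs, mitochondrial MDH2 gained on cytosolic MDH1, with MDH1 to MDH2 at 0.301 and 0.332 in the knockouts and 0.481 and 0.444 in the controls. GOT1 to GOT2 stood at 0.528 and 0.575 in the knockouts and 0.677 and 0.636 in the controls. IDH1 to IDH2 was at 3.00 and 1.99 in the knockouts and 1.79 and 1.87 in the controls, so that its shift came mostly from knockout replicate 1. The ratios of ME1 to ME2 and of PC to PDHA1 overlapped between the groups. Several pairs share a gene and are not independent. A few further ratios were chosen after their values were seen. IDH3A to IDH3G was 0.783 and 0.399 in the knockouts and 0.146 and 0.177 in the controls, and DLD to PDHA1 was 1.21 and 0.899 in the knockouts and 0.434 and 0.467 in the controls. DLST to OGDH, within the same complex, moved little, at 0.512 and 0.477 in the knockouts and 0.466 and 0.433 in the controls.

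**Figure D4:**
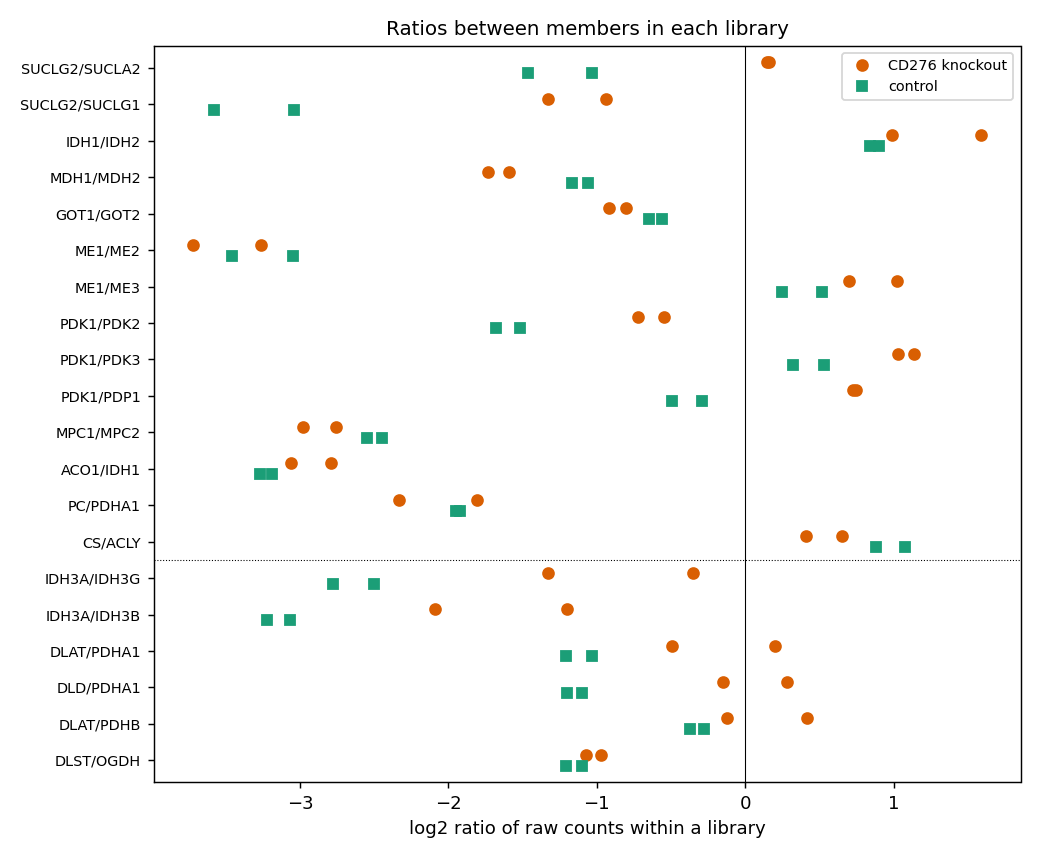
Log2 ratio of the raw counts of 2 enzymes in each library, CD276 knockout (circles) and control (squares), with pairs below the dotted line chosen after their values were seen. The SUCLG2 ratios and the IDH3A ratios show the largest differences between the group means, and the 2 knockouts lie far apart in the IDH3A ratios.

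Of 37 related genes in the table, 35 passed the filter on low counts, 3 rose, 2 fell and 30 were not called, beside 9.87% that rose and 12.9% that fell among all genes, with a median log2 fold change of 0.08. SDHC, a membrane anchor of succinate dehydrogenase, was at 197 and 178 normalized CPM in the knockouts, against 108.5 and 102 in the controls, and rose (0.83 ± 0.14, edgeR adjusted p = 0.00685). The other 3 subunits of that enzyme were not called. GLS2, a glutaminase, which releases glutamate from glutamine, was at 5.37 and 6.11 in the knockouts, against 2.78 and 2.89 in the controls, and rose (1.02 ± 0.26, edgeR adjusted p = 0.0269). Annotation on the opposite strand covers 77.1% of the exonic bases of GLS2. ASNS, asparagine synthetase, which uses glutamine as its amino donor, was at 263 and 219 in the knockouts and 409.9 and 374 in the controls, and fell (-0.70 ± 0.16, edgeR adjusted p = 0.0177). Other annotation on the same strand covers 44.6% of its exonic bases. D2HGDH, which oxidizes D-2-hydroxyglutarate to 2-oxoglutarate, was at 45.2 and 43.95 in the knockouts and 69.1 and 73.8 in the controls, and fell (-0.68 ± 0.13, edgeR adjusted p = 0.0114). Annotation on the opposite strand covers 18.5% of its exonic bases. All 5 calls among the related genes were lost without control replicate 1, and all 5 without control replicate 3.

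Start windows of 300 bases were found in RefSeq for 32 of the 35 enzymes. Taking the highest window of each gene, the median was 28.5 CpG dinucleotides, against 16 over 27305 genes with such a window. Those genes were not limited to the ones that passed the filter on low counts, as all 35 enzymes did. A background matched for expression was not taken. The 13 that rose (median 29, range 20 to 38) had nearly the same median as the 18 not called (28, range 6 to 47). The windows were searched on both strands for 3 motifs. The core of the hypoxia response element, ACGTG, which also lies within the E-box CACGTG, was present for 11 of the 32 and for 4 of the 13 that rose (DLAT, PDK1, IDH1 and GOT2), and for 24.9% of all genes. The ETS core CCGGAAG was present for 5 of the 32 (IDH3B, IDH3G, DLST, MDH2 and ME2) and for 12.2% of all genes. The oestrogen-related receptor element TCAAGGTCA was present for 0 of the 32 and for 0.432% of all genes. A match is a string of letters in this window, not a bound site. PDK1, the member best known as a hypoxia target, has 2 start windows, and they are shown because they differ. The first (chr2:172555123-172555422, plus strand) has 6 CpG dinucleotides and no match. The second (chr2:172555840-172556139, plus strand) has 38 and holds 2 matches to the hypoxia core, in capitals and read on the opposite strand.
PDK1 first window: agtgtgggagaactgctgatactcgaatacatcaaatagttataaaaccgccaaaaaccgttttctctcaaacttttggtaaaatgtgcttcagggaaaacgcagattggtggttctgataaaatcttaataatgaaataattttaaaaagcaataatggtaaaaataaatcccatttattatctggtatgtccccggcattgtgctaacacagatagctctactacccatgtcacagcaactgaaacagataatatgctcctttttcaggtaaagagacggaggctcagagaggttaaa
PDK1 second window: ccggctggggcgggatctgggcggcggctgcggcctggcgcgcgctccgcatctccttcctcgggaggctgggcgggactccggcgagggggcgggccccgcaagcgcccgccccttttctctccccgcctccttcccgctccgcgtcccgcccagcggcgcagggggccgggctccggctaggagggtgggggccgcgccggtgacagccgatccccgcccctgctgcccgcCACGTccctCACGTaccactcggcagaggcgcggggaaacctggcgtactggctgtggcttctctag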

How the data were processed

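Poly(A)-selected libraries of 2 CD276 knockout and 2 control samples of 22Rv1 cells were sequenced, per the labels' protocols. The authors deposited raw counts per gene, as whole numbers with differing column totals. The submitters' processing notes name GRCh38, featureCounts (Subread 1.5.2), STAR 2.5.2b and Trimmomatic 0.36. No source used here gives the strand setting, the handling of multi-mapping reads or the annotation release.

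The 486 of 57500 rows without a gene name (0.0191% to 0.0290% of counts) were left out. R 4.3.3 with edgeR 4.0.16 was used: filterByExpr for low counts, TMM scaling (a trimmed mean of log ratios), and a robust quasi-likelihood fit on group alone, which leaves 2 residual degrees of freedom. Adjustment was by Benjamini-Hochberg across the 18043 genes tested. SE is the size of the log2 fold change over the square root of F, and intervals are 95%. Normalized CPM are counts over TMM-scaled totals. Positions, exon lengths, GC content and exonic overlap came from GENCODE 29 (GRCh38), and start windows from RefSeq (GRCh38.p14). The scripts were tested on simulated counts.

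The members and lists were chosen with earlier results of these data known. All 35 genes are accounted for. The rule for values in every library took those called, those with an unadjusted p under 0.05 and the 5 with the highest level; the remaining members were given in the same way for completeness. Of the related genes, those called are named, except that 1 result is not reported here. Alternatives were RLE scaling, library totals, no filter, DESeq2 1.42.0, the replicate number as a block, nuclear protein-coding genes alone, GC and length offsets (natural splines with 5 degrees of freedom per library), and leaving out each library. A stricter adjusted p, under 0.01, and some ratios were chosen after seeing the data. Fits that leave out 1 library have 1 residual degree of freedom and assume that the lone library varies as the other pair does. No label gives a batch.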

Additional observations from a re-analysis of the deposited data

How the results depend on the processing

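Of the 14 calls, all kept their direction under every alternative run. RLE scaling, DESeq2, library totals and no filter on low counts kept all 14, and the GC and length offsets kept 12. The calls numbered 16, 16, 16, 17 and 14 under these in that order, and 12 with nuclear protein-coding genes alone. All genes called numbered 4022, 4025, 4121, 5353 and 4390 in the same order, of 18043 tested, or 32400 without the filter. With nuclear protein-coding genes alone, 2988 of 13757 were called. The number called lower was 2 under RLE scaling, DESeq2, no filter and nuclear protein-coding genes alone, where FH joined IDH3G, against 1. The number of related genes called was 9 without the filter, against 5, where all genes called numbered 5353 of 32400 against 4111 of 18043. At an adjusted p under 0.01, 5 of the 35 were called, all 5 higher, beside 2.00% of all genes higher and 3.74% lower. The median log2 fold change of the 35 was 0.371 with library totals and 0.345 with the GC and length offsets, against 0.27. Library totals gave a median over all genes of 0.10 and all-gene calls of 2340 higher and 1781 lower, against 1780 and 2331 with TMM. The GC and length offsets gave a median over all genes of 0.066 and all-gene calls of 2279 higher and 2111 lower.

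Leaving out 1 library at a time, the 35 had 1 to 24 calls, 1 to 20 higher and 0 to 6 lower, with a median of 0.248 to 0.352. Related genes called ranged from 0 to 23 and all genes called from 312 to 9198, with 45 to 4795 higher and 267 to 4471 lower. Genes tested numbered 18931 to 19076 in these fits. Counts of calls were low without a control, where the spread comes from the 2 knockouts, and high without a knockout, where it comes from the 2 controls. The correlation of log2 CPM was 0.9795 between the knockouts and 0.9904 between the controls. The part of this difference in the number of calls was not tested.

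Uncalled values near 0 changed sign. PDP1 was at 0.0754 with library totals, 0.103 without control replicate 3 and 0.129 without knockout replicate 1, and MDH1 at 0.067, at 0.0395 without control replicate 1 and at 0.10 without knockout replicate 1. MPC1 was at -0.0137 without knockout replicate 3. Over the 4 fits without 1 library, PDP1 ranged between -0.152 and 0.129, MDH1 between -0.11 and 0.10, and MPC1 between -0.0137 and 0.383.

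With the replicate number as a block, 11 of the 35 were called (10 higher and 1 lower) and 4843 of all genes. MDH2, GOT2 and ACLY missed the threshold (edgeR adjusted p = 0.0917, 0.0836 and 0.0511 in that order). Nothing in the labels says that equal numbers share a culture or day, and same-numbered libraries did not deviate together (r = -0.02 across 18043 genes, which are not independent).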
